A study of Mus musculus with 21 samples.

Results

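The genes described here encode the proteins of the mitochondrial ribosome. They were chosen by symbol alone, as every gene model named Mrpl or Mrps followed by a number, which gave 68 genes among 28541 gene models. Of these, 44 carry a large subunit symbol (Mrpl) and 24 a small subunit symbol (Mrps), and each symbol had 1 model. All 68 passed the filter on low counts in every fit, and the lowest count of any of them in any library was 106.

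The mitochondrial ribosome sits in the mitochondrial matrix and translates the few mRNAs of the mitochondrial genome, whose products are core subunits of the respiratory chain and ATP synthase. Its RNAs come from mitochondrial DNA, whereas all its proteins are encoded in the nucleus, made in the cytosol and imported. Some of these proteins have counterparts in bacterial ribosomes and others exist only in mitochondria. Brown adipose tissue is rich in mitochondria and burns fuel for heat through Ucp1, while the white vastus is a largely glycolytic skeletal muscle.

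Brown adipose tissue, here BAT, and the white vastus lateralis of the thigh, here WV, came from BATI4KO mice and from control mice labelled FX (floxed), and total RNA was depleted of ribosomal RNA, primed with random hexamers and sequenced. There were 5 floxed and 6 BATI4KO libraries of BAT, and 5 floxed and 5 BATI4KO libraries of WV. As background, BATI4KO mice carry floxed alleles of Irf4, a transcription factor, that are deleted in brown fat by a Cre under the Ucp1 promoter, so the muscle of these mice is not a target of the deletion. The labels give neither age, strain nor sex, and do not state whether every library came from its own animal; the tests rest on library-to-library spread, which may be technical.

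Library totals ran from 20219479 to 41773148 counts. Levels are given in CPM, counts scaled to a common library size with TMM factors, on 1 scale for both tissues. In BAT, Irf4 lay between 17.9 and 43.5 CPM in floxed libraries and between 4.92 and 5.95 CPM in BATI4KO libraries (log2 difference -2.45 ± 0.24 SE, edgeR adjusted p = 0.0026). Brown adipocyte markers summed to 5152 to 14320 CPM in BAT and 53.0 to 150 CPM in WV, and Ucp1 was near 0 in WV. Skeletal muscle markers summed to 228300 to 525400 CPM in WV and 119 to 14650 CPM in BAT. The 11 BAT libraries fall into 2 sets by title, 6 with a short number (3 floxed, 3 BATI4KO) and 5 with a long tag (2 and 3). These sets stood apart: Rmrp, a small noncoding RNA, was at 221 to 967 CPM in the short-number set and at 8.78 to 23.8 CPM in the long-tag set. All WV libraries have long tags, so fits that include BAT carry title style as a term and tissue differences are read at the long-tag style. Floxed WV was itself split in Rmrp. WV_FX_5497, WV_FX_5503 and WV_FX_5514 were at 143.5, 148.5 and 186.6 CPM, against 20.87 and 30.92 CPM in WV_FX_5413 and WV_FX_5415. BATI4KO WV libraries were at 16.45 to 21.56 CPM. No term for this split was fitted, and its part in the WV values was not tested.

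Sequences just upstream of these genes are shown because the family is a textbook target of a few transcription factors, and because genes that differed most between the tissues can be set side by side. RefSeq promoter windows (GRCm38.p6, 250 bases before to 50 after the start) were found for 61 of the 68 genes, in 67 windows. Capitals mark matches on either strand to the NRF1 motif (GCGCA, any base, then GCGC), the ETS motif CCGGAAG bound by GABP, the YY1 motif AAGATGGC, the Sp1 motif GGGCGG and the CCAAT box. Mrps2, Mrpl39 and Mrpl34 were higher in BAT than in WV, and Mrpl23, Mrpl14 and Mrpl42 lower; Mrpl42 is added as the example with a YY1 match.
Mrps2: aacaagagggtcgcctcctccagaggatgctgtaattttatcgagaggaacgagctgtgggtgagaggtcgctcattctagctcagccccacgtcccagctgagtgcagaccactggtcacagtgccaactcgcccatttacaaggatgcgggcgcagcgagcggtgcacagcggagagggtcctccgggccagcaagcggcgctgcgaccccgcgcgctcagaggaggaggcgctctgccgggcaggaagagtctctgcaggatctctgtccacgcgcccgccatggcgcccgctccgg
Mrpl39: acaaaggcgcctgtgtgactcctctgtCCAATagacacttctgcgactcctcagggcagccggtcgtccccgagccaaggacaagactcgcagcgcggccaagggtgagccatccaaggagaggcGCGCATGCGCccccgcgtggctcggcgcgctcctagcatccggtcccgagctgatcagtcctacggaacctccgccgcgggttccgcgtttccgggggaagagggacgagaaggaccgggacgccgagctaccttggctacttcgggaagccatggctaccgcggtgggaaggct
Mrpl34: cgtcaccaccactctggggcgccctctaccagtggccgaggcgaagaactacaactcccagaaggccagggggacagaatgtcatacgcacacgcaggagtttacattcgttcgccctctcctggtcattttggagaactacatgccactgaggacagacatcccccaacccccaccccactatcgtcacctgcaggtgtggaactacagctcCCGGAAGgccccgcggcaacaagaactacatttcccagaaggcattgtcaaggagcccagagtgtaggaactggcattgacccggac
Mrpl23: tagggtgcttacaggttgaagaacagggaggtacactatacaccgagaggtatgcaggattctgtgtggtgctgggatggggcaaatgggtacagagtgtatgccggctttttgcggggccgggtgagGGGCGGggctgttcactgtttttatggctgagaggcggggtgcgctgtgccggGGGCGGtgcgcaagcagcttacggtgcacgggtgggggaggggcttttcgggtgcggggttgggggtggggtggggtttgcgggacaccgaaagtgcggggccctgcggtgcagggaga
Mrpl14: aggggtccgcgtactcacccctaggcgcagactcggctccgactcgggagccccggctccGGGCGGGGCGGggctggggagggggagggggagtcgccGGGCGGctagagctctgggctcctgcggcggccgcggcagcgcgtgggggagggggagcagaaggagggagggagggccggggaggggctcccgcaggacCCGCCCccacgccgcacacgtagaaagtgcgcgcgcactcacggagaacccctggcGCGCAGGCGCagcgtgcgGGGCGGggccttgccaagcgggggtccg
Mrpl42: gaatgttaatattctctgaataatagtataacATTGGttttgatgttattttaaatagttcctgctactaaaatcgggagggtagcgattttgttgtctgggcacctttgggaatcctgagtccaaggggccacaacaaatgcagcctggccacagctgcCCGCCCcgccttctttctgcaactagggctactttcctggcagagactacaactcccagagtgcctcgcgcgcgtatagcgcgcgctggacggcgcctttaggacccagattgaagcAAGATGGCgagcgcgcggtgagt
The windows are, in the same order, chr2:28467816-28468115 (plus strand), chr16:84735195-84735494 (minus strand), chr8:71464676-71464975 (plus strand), chr7:142532782-142533081 (plus strand), chr17:45686099-45686398 (plus strand) and chr10:95501900-95502199 (minus strand).

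Mrpl39 holds 1 NRF1 match, at -125 from the start, and Mrpl34 holds 1 ETS match, at -37. Mrpl14 holds 1 NRF1 match at 4 and 5 Sp1 matches, 2 of which overlap by a shared base. The Mrpl42 window has its YY1 match at 27, and the Mrps2 window holds none of the motifs searched. Over the family, the NRF1 motif was present in 17.9% of the 67 windows and in 4.6% of all 32851 windows of the same length. The ETS motif was in 28.4% against 8.86%, and the YY1 motif in 16.4% against 2.75%. Among windows with a GC content between 52.7% and 64.7%, the same shares were 18.4% against 6.46%, 26.3% against 13.7% and 13.2% against 3.59%. The Sp1 motif was in 52.2% against 35.7% of all windows, and in 52.6% against 48.6% in that GC range. The CCAAT box was in 40.3% against 37.4%, the E-box CACGTG in 8.96% against 7.15%, AAGGTCA in 5.97% against 4.72% and TATAAA in 7.46% against 13.6%. Both directions of tissue difference held NRF1 matches, with 2 of 11 windows of genes higher in BAT and 3 of 11 of genes lower in BAT. The motifs were chosen after values of these data had been seen, and a match is a letter pattern, not an occupied site.

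Many of these genes share a start region with a neighbour. In the GRCm38 annotation, 19 of the 68 genes (27.9%) start within 1000 bases of a protein-coding gene on the other strand, against 7.94% of 21951 protein-coding genes. Several partners also serve mitochondria: Mrpl36 starts 29 bases from Ndufs6, a complex I subunit, and Mrps12 starts 172 bases from Sars2, the mitochondrial seryl-tRNA synthetase. Of the 17 pairs whose partner was tested, both genes differed between the tissues in floxed mice in 3. Of the 19 family members in such pairs 7 passed singly, and of the 17 partners 9, where 65.8% of all models passed. Mrpl54 and Apba3 were both lower in BAT (log2 differences -0.76 and -0.65), as were Mrpl51 and Ncapd2 (-0.34 and -0.47), whereas Mrpl40 was higher (0.39) and Hira lower (-0.39). In the other pairs the genes did not both pass in floxed mice: Mrpl30 differed by 0.27 without passing beside Mitd1 at 1.47 (edgeR adjusted p = 1.66e-05). In BATI4KO mice Mrpl54 and Apba3 were again both lower (-0.79 and -0.64), and Mrpl49 and Fau both higher (0.27 and 0.44). Mrps5 was higher (0.35) and Zfp661 lower (-0.40). Ncapd2 and Mrpl40 did not pass there (edgeR adjusted p = 0.0807 and 0.0872). Exons of 19 genes (27.9%) overlap another gene, against 25.3% of all protein-coding genes. The library kit does not mark strand, so reads of overlapping genes cannot be told apart where they overlap. Among these pairs are Mrpl24 with Rrnad1, Mrpl9 with Oaz3, Mrpl49 with Syvn1, Mrpl18 with Tcp1, Mrpl19 with Gcfc2 and Mrpl43 with Twnk. Exons of Mrpl10 overlap Gm11574, a processed transcript on the opposite strand.

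Levels per length spanned a 25.2-fold range among the 68 genes in floxed BAT and a 24.9-fold range in floxed WV. The median was 17.1 CPM per kilobase in BAT and 20.4 in WV, against 144 and 143 for 36 nuclear subunits of complex I and 79.5 and 86.2 for cytosolic ribosomal proteins. Large and small subunit genes had similar medians, at 17.4 and 16.9 CPM per kilobase in BAT and 22.0 and 20.1 in WV. The quartiles of the family were 11.6 and 28.9 CPM per kilobase in BAT.

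Mrpl30, a large subunit protein with a bacterial counterpart, was highest in floxed BAT at 79.7 ± 19.2 CPM per kilobase (SD, n = 5) and second in WV at 79.9 ± 9.44. Mrpl12, the stalk protein that also binds the mitochondrial RNA polymerase, followed in BAT at 66.1 ± 17.0 and stood at 71.8 ± 18.2 in WV. Mrps21, a small subunit protein, led in WV at 97.1 ± 31.3 and was at 60.6 ± 7.68 in BAT. Its floxed WV level was split like that of Rmrp. It was at 115.4, 120.9 and 121.8 in WV_FX_5497, WV_FX_5503 and WV_FX_5514, and at 73.73 and 53.86 in WV_FX_5413 and WV_FX_5415. The SD ranges of these leading genes overlapped within each tissue. The lowest in both tissues was Mrps25, at 3.16 ± 1.12 in BAT and 3.90 ± 0.30 in WV, and Mrpl19, Mrps22 and Mrpl41 were also among the 5 lowest in both. The orders in the tissues were alike, with a Spearman coefficient of 0.795 across the 68 genes, which share gene lengths and library preparation. The level per kilobase also fell with model length (Spearman -0.484 in BAT, -0.560 in WV), so the longest models weigh on the low end.

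**Figure D1:**
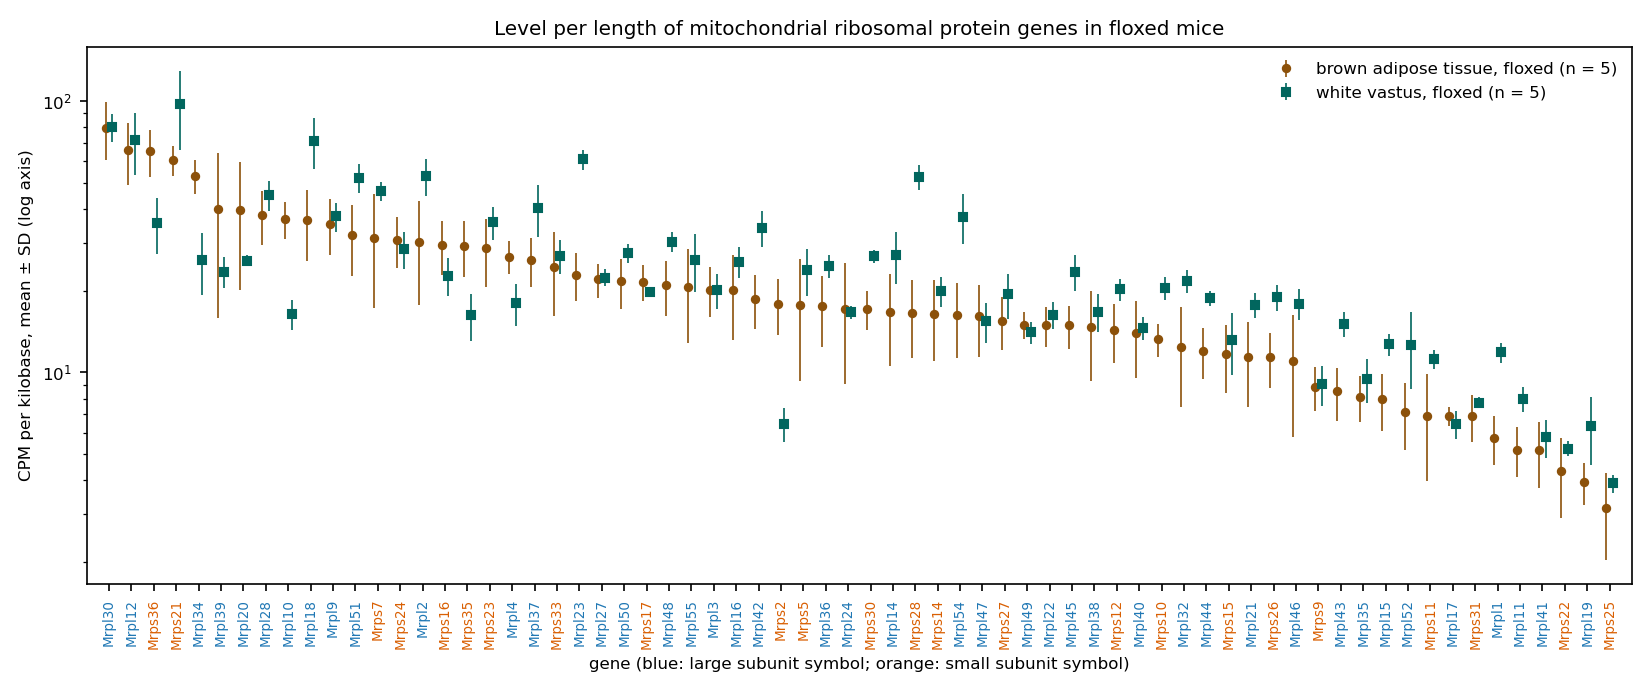
Level per length of each gene in floxed mice, as mean CPM per kilobase ± SD over 5 libraries a tissue, on a log axis, ordered by the BAT mean. Mrpl30 leads and Mrps25 is last in BAT; Mrps2, Mrpl34 and Mrpl10 lie higher in BAT, and Mrpl23, Mrps28 and Mrpl54 higher in WV.

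Brown fat and white vastus differed in about as many genes one way as the other. In floxed mice, 13 genes were higher in BAT (34.1% of all models were) and 19 lower (31.7% were), so 32 of 68 (47.1%) passed an edgeR quasi-likelihood test at adjusted p under 0.05, where 65.8% of 16632 tested models did. In BATI4KO mice, 17 were higher and 17 lower (37.4% and 33.1% of all models), or 50% together, where 70.5% of all models passed. The median absolute log2 difference was 0.290 for the family and 0.798 for all models in floxed mice. Fewer cells of a type and less RNA per cell cannot be told apart in such whole-tissue libraries.

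The balance of the directions changed with how libraries were scaled; the cause was not tested. Upper-quartile scaling gave 19 higher and 13 lower in floxed mice and 22 and 12 in BATI4KO mice. With library totals alone it was 47 and 2, and 60 and 0. Of all models, about 6365 were higher in floxed and 7277 in BATI4KO mice with upper quartiles. With library totals these were about 9474 and 11360, from 5676 and 6213 in the main fit. Library totals moved the median of all models to 0.79 and 1.09, and upper quartiles moved it to 0.23 and 0.32, from 0.11 and 0.14. A correction for gene length gave 9 and 26 in floxed mice and 9 and 29 in BATI4KO mice. Leaving out the title style term gave 7 and 30, and 10 and 25. Of all models, about 5287 and 5691 were higher with the length correction (medians 0.037 and 0.048). Without the title style term about 6144 and 6568 were higher (medians 0.14 and 0.16). Without the library BAT_FX_5497, 12 genes rather than 19 were lower in floxed mice, and without WV_FX_5415, 11 rather than 17 were higher in BATI4KO mice. The counts thus give no direction for the family that held under each of these scalings.

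Large and small subunit genes were counted apart. In floxed mice the median log2 difference was -0.095 for large subunit genes, with 9 higher and 14 lower of 44, and 0.066 for small subunit genes, with 4 higher and 5 lower of 24. The median of all models was 0.11. In BATI4KO mice the medians were -0.075 and -0.046 against 0.14, with 9 higher and 14 lower and with 8 higher and 3 lower. All of these medians changed sign or moved under other scalings: with library totals they were 0.61 and 0.77 in floxed mice. The floxed small subunit median was -0.097 without WV_FX_5415, and the large subunit median was 0.045 without BAT_FX_5497.

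In both genotypes 12 genes were higher in BAT (31% of all models were) and 14 lower (29.3% were). These counts moved as well, to 47 and 0 with library totals, 17 and 11 with upper quartiles, 9 and 26 with the length correction, 7 and 24 without the title style term and 9 and 8 with the replicate block. Some single genes kept their call. Mrps2, Mrps35, Mrps36, Mrpl10, Mrpl4 and Mrpl34 were called higher in both genotypes under all 13 settings, library totals and upper quartiles included, and with each of the 21 libraries left out. In these 6 genes no BAT library overlapped a WV library within either genotype, where 26.3% of all models lay wholly above in floxed mice and 28.8% in BATI4KO mice. They were the only 6 of 68 members that lay wholly above. In each genotype 14 of 68 lay wholly below, where 25.7% of all models did in floxed and 27.6% in BATI4KO mice. Mrpl1, Mrpl14, Mrpl23, Mrpl42, Mrpl43, Mrpl54 and Mrps28 were called lower in both genotypes under 12 of 13 settings, library totals being the exception. Library totals and upper quartiles moved values upward in BAT, so these settings could remove lower calls but hardly higher ones. Both sets of genes were named because their calls held. How many of all models kept a call in this way was not counted.

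Mrps2, a small subunit protein with a bacterial counterpart, showed the largest rise in floxed mice. Its levels in floxed BAT were 50.0, 47.9, 43.9, 61.3 and 76.0 CPM, and in floxed WV 23.8, 16.8, 18.8, 18.97 and 22.3 CPM. All BAT libraries were above all WV libraries, and the long-tag BAT libraries were the highest. The log2 difference was 1.71 ± 0.13 (SE, edgeR adjusted p = 2.02e-10) in floxed mice and 1.24 ± 0.12 (adjusted p = 1.15e-08) in BATI4KO mice. In BATI4KO mice its level ran from 39.6 over a median of 44.5 to 65.3 CPM in BAT, and from 20.6 to 25.2 CPM in WV.

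Mrps35, a small subunit protein found only in mitochondria, was at 28.2, 23.7, 27.1, 35.9 and 41.4 CPM in floxed BAT and at 21.5, 15.3, 16.7, 13.1 and 19.9 CPM in floxed WV. The difference was 1.26 ± 0.14 in floxed mice (edgeR adjusted p = 9.71e-08) and 1.24 ± 0.13 in BATI4KO mice. Mrpl10, which anchors the stalk that binds translation factors, was at 72.4, 59.6, 51.3, 54.7 and 71.7 CPM in floxed BAT against 32.1, 24.9, 29.0, 23.3 and 28.7 CPM in floxed WV. It differed by 1.23 ± 0.12 and 1.08 ± 0.11. Its short-number and long-tag BAT libraries overlapped, with means of 57.38 and 60.83 CPM. WV has no short-number libraries, so the tissues cannot be compared within that set. Mrpl34, a small large-subunit protein with a bacterial counterpart, differed by 1.18 ± 0.17 and 1.37 ± 0.16, from 28.3 to 41.7 CPM in floxed BAT and from 11.1 to 23.2 CPM in floxed WV. Mrpl4, which lines the exit tunnel of the ribosome, differed by 0.68 ± 0.13 and 0.71 ± 0.13.

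Mrps36 carries a small subunit symbol, but its product is now placed in the 2-oxoglutarate dehydrogenase complex of the citric acid cycle. It was at 43.5, 39.1, 43.8, 44.3 and 62.5 CPM in floxed BAT and 28.0, 17.4, 27.6, 22.0 and 32.4 CPM in floxed WV, with no overlap (edgeR adjusted p = 5.23e-06), and the log2 difference in BATI4KO mice was 1.06 ± 0.16. Mrps30, now placed in the large subunit, was lower in floxed BAT by -0.35 ± 0.12 (edgeR adjusted p = 0.0138) and at -0.17 ± 0.11 in BATI4KO mice (adjusted p = 0.153). Mrpl12 did not pass the test, at 0.18 ± 0.22 and 0.01 ± 0.21.

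A second set of higher genes, Mrpl39, Mrpl20 and Mrpl24, changed with the title style term. They were called higher in both genotypes under 12 of 13 settings, long tags alone included, and with each of the 21 libraries left out. The exception was the fit without that term. Mrpl39, a large subunit protein found only in mitochondria, was at 23.5, 24.8 and 23.3 CPM in the short-number floxed BAT libraries and at 56.9 and 77.4 CPM in the long-tag ones. In floxed WV it was at 28.9, 20.7, 25.4, 22.7 and 22.9 CPM. The short-number BAT libraries thus lay within the WV range, and only the long-tag ones above it. The log2 difference in floxed mice of 1.498 ± 0.114 (edgeR adjusted p = 1.96e-10) was 0.77 (adjusted p = 0.0565) without the title style term, and in BATI4KO mice it went from 1.36 to 0.79 (adjusted p = 0.0418). Mrpl20, whose bacterial counterpart acts in ribosome assembly, went from 1.19 to 0.62 (adjusted p = 0.0592) in the same way, and Mrpl24, an exit-tunnel protein, from 0.60 to 0.05 (adjusted p = 0.879). The remaining genes higher in both genotypes were Mrps16, Mrpl49 and Mrpl9, at 0.30 to 0.41 in floxed mice; Mrps16 was called in both genotypes in 9 of 21 fits that left out 1 library, Mrpl9 in 13 and Mrpl49 in 17.

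**Figure D2:**
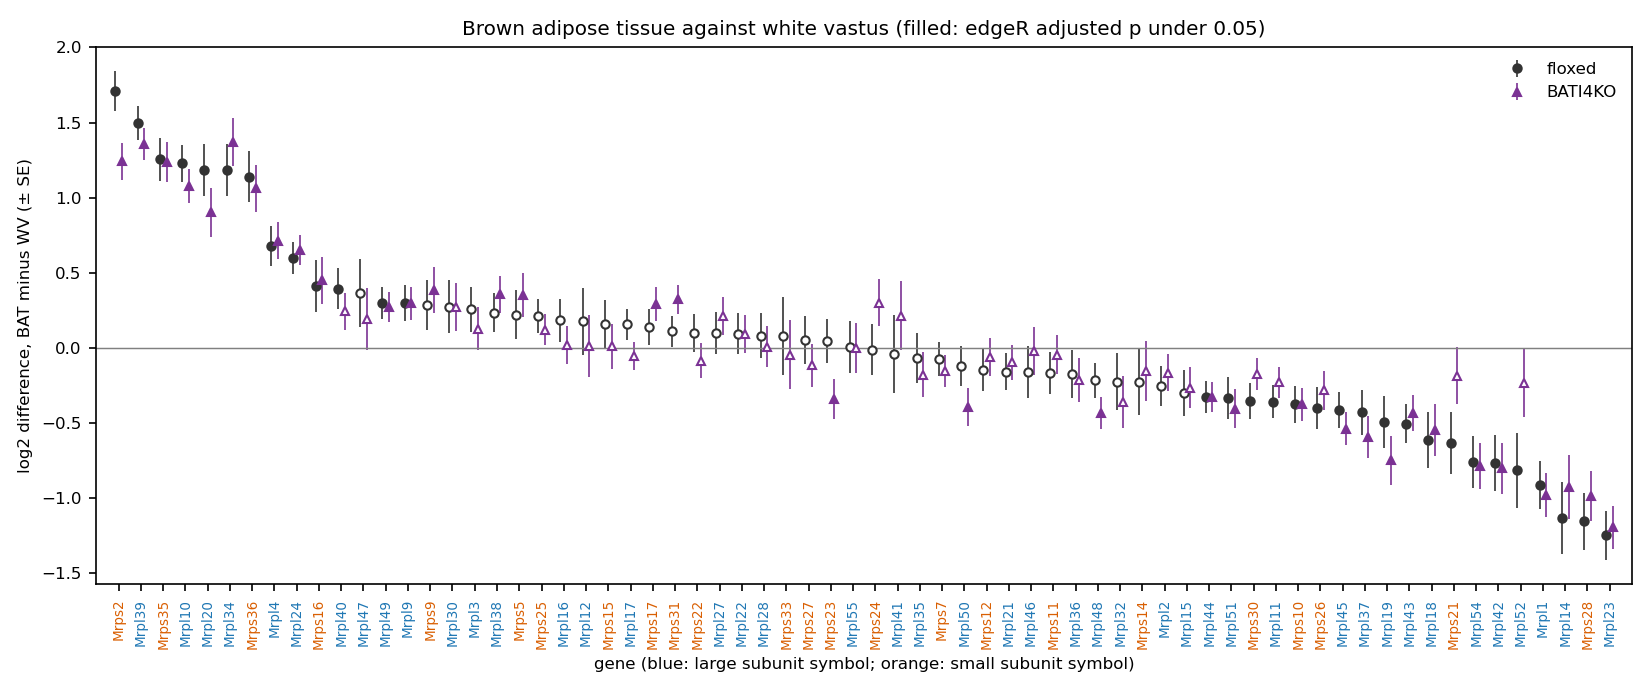
Log2 difference BAT minus WV for each gene in floxed (circles) and BATI4KO mice (triangles), ± SE, at the long-tag style; filled symbols passed edgeR adjusted p under 0.05. Mrps2 is highest at 1.71 and Mrpl23 lowest at -1.25 in floxed mice, with most genes between -0.5 and 0.5.

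Among the genes lower in BAT, Mrpl23, an exit-tunnel protein of the large subunit, differed most. It was at 11.5, 11.2, 17.0, 11.6 and 15.3 CPM in floxed BAT and 36.1, 30.0, 36.1, 37.7 and 37.3 CPM in floxed WV. These did not overlap, where 25.7% of all models lay wholly below in floxed BAT. The log2 difference was -1.25 ± 0.16 (edgeR adjusted p = 6.61e-07) in floxed mice and -1.19 ± 0.14 (adjusted p = 2.22e-07) in BATI4KO mice. With library totals it was -0.56 (adjusted p = 0.00519) and -0.24 (adjusted p = 0.135). Its nearest annotated neighbour is Tnnt3, a fast muscle troponin gene, with no exon overlap; RefSeq also lists a pseudogene, Mrpl23-ps1, whose reads could be shared.

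Mrps28, a small subunit protein, was at 8.58, 9.37, 12.7, 11.1 and 18.2 CPM in floxed BAT against 36.2, 32.1, 37.9, 41.9 and 41.7 CPM in floxed WV. Every BAT library was below every WV library within each genotype, as in 25.7% (floxed) and 27.6% (BATI4KO) of all models. The differences were -1.16 ± 0.19 and -0.99 ± 0.17 (edgeR adjusted p = 1.44e-05 and 1.84e-05). Mrpl1, which forms the stalk near the exit site of tRNA, was at 17.0 to 30.1 CPM in floxed BAT and 43.9 to 55.5 CPM in floxed WV, a difference of -0.91 ± 0.16. Mrpl42 and Mrpl54, both found only in mitochondria, differed by -0.77 ± 0.19 and -0.76 ± 0.17. The last 2 were positive with library totals in BATI4KO mice, at 0.12 and 0.15. Mrpl54 was highest in the floxed WV libraries high in Rmrp, WV_FX_5497, WV_FX_5503 and WV_FX_5514, at 35.81, 42.26 and 48.12 CPM per kilobase. WV_FX_5413 and WV_FX_5415 were at 33.22 and 28.09.

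Mrpl14, on the face where the subunits meet and the docking site of the assembly factor Malsu1, differed by -1.13 ± 0.24 (edgeR adjusted p = 0.00028) in floxed and -0.93 ± 0.21 in BATI4KO mice. It was the only member called higher in the short-number libraries of BAT. In floxed mice those stood at 10.6, 10.9 and 15.4 CPM, the long-tag ones at 6.11 and 6.86 CPM, and WV at 17.1, 11.5, 17.3, 13.9 and 20.6 CPM. Mrpl52 and Mrps21 were lower in floxed BAT (-0.82 ± 0.25 and -0.63 ± 0.21) and did not pass in BATI4KO mice (-0.23 and -0.19). In both genes the highest floxed WV libraries were WV_FX_5497, WV_FX_5503 and WV_FX_5514, those high in Rmrp.

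Mrpl45, which ties the ribosome to the inner membrane, and Mrpl44, which has an RNase III fold, were lower by -0.42 ± 0.12 and -0.33 ± 0.11 in floxed mice. The others lower in both genotypes were Mrpl18, Mrpl43, Mrps10, Mrpl37, Mrpl19 and Mrpl51, at -0.61 to -0.34. With library totals all 8 of these genes were positive in both genotypes, and Mrpl44 and Mrpl51 were then called higher in both (0.36 and 0.37 in floxed mice, edgeR adjusted p = 0.0464 and 0.0379). Nearest to no difference in floxed mice were Mrpl55 (0.0069), Mrps24 (-0.011) and Mrpl41 (-0.042).

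**Figure D3:**
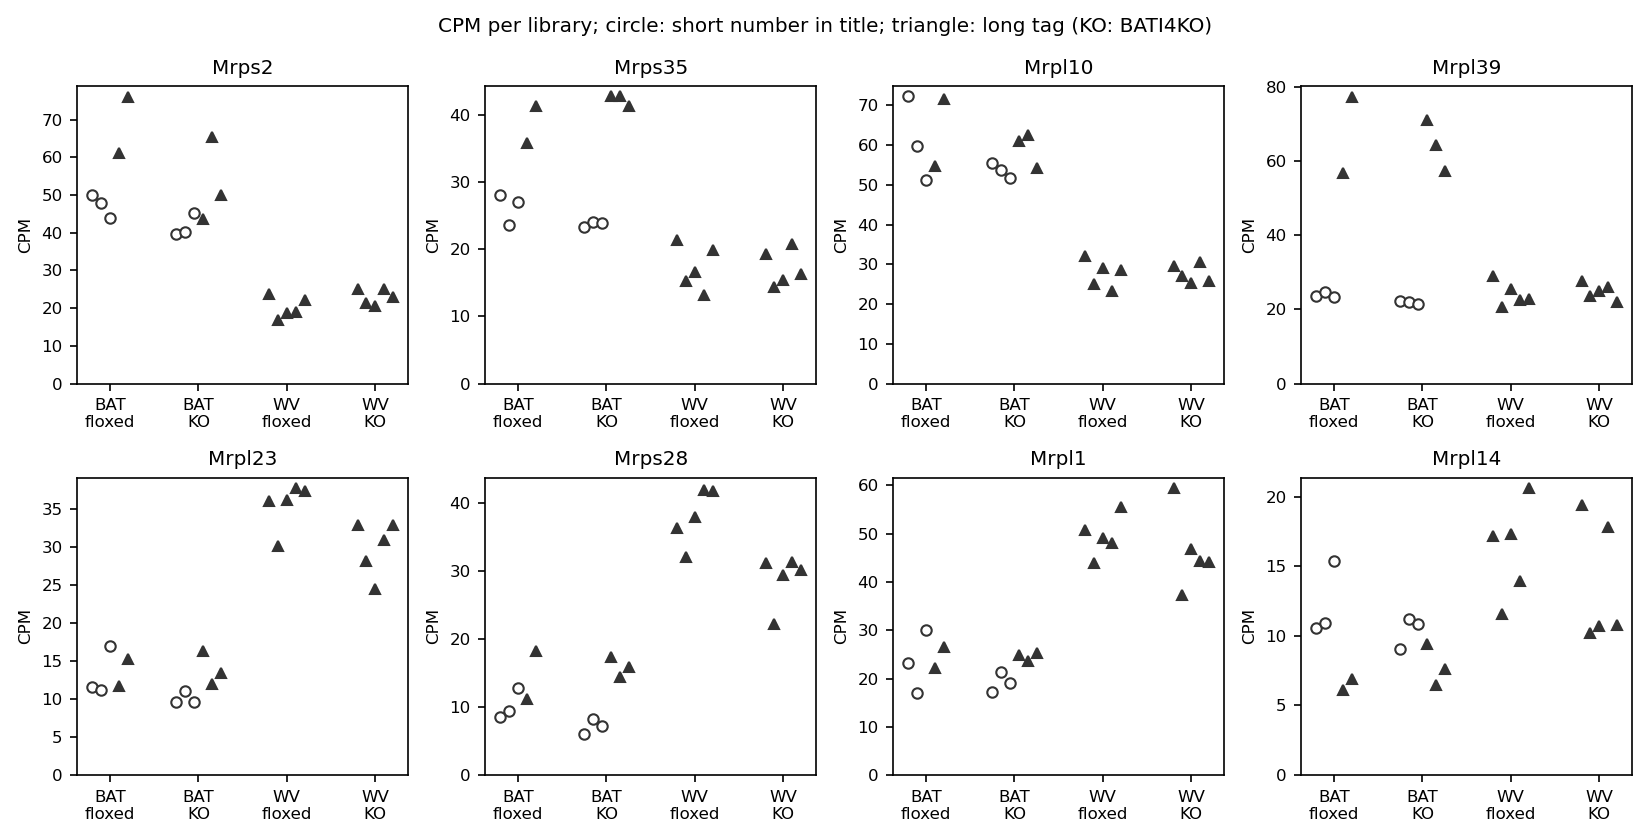
CPM in each library for 4 genes higher in BAT (top) and 4 lower in BAT (bottom), by tissue and genotype; open circles are libraries with a short number in the title and filled triangles those with a long tag. Mrpl39 reaches 56.9 CPM or more only in long-tag BAT libraries, whereas Mrpl10 is at 51.3 CPM or more in every BAT library.

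Other lists of mitochondrial gene expression were read from the same fit, without a test between lists, where 34.1% of all models were higher and 31.7% lower in floxed mice. Of 17 mitochondrial tRNA synthetases, 8 were higher and 1 lower in floxed mice (median 0.25), and 8 and 3 in BATI4KO mice. Among the higher ones were Iars2 (0.94 ± 0.13) and Vars2 (0.95 ± 0.16), which charge isoleucine and valine tRNAs. Of 9 tested transcription and RNA-processing genes (4 higher and 2 lower in BATI4KO mice), 6 were higher in floxed mice, such as the poly(A) polymerase Mtpap (0.81 ± 0.09), and 2 lower, including Tfam, which packages mitochondrial DNA (-0.89 ± 0.10). Of 10 mitoribosome proteins with other names, 2 were higher and 3 lower in floxed mice, with Chchd1 at -1.07 ± 0.30, and 2 and 1 in BATI4KO mice. Of 14 mitochondrial translation factors, 4 were higher and 4 lower in each genotype, and of 18 mitoribosome assembly factors 5 and 4. Of 17 genes of mitochondrial mass, 10 were higher and 4 lower in floxed mice, and 10 and 5 in BATI4KO mice. Cytosolic ribosomal proteins had 5 higher and 29 lower of 77 in floxed mice and 10 and 19 in BATI4KO mice. Complex I had 9 and 4 of 36, and 11 and 3. Of 11 regulators of mitochondrial biogenesis, 5 were higher and 1 lower in floxed mice, and 4 and 1 in BATI4KO mice. Among them the coactivators Ppargc1b and Ppargc1a, which drive mitochondrial biogenesis, were higher in floxed mice by 2.75 ± 0.29 and 1.502 ± 0.308. In BATI4KO mice the values of the list ran from -1.06 to 1.97.

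Loss of Irf4 in brown fat came with small, mostly negative differences in BAT, none of which passed the test. By edgeR, 0 of 68 genes passed at adjusted p under 0.05 (0.0436% of 16051 tested models did, 0.0187% higher and 0.0249% lower). DESeq2 also called 0 of 68, and 372 of all models. An unadjusted edgeR p under 0.05 was found in 8 of 68 genes and in 2366 of 16051 models. The log2 difference was negative in 62 of 68 genes, with a median of -0.14 for large and -0.13 for small subunit genes, against -0.0071 for all models. Without BAT_FX_5503 the medians were -0.075 and -0.078, with 1 gene at an unadjusted p under 0.05. Without BAT_FX_5497 the medians were -0.21 and -0.24, with 30 genes. Of all models, 1508 and 2581 were under 0.05 in these fits. No gene separated the genotypes, where 0.586% of all models lay wholly above in BATI4KO libraries and 0.343% wholly below. Values within the title sets differed: the medians were -0.19 and -0.20 in the 6 short-number libraries, with 62 negative, and -0.023 and 0.033 in the 5 long-tag libraries, with 38 negative.

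Mrps23, a small subunit protein found only in mitochondria, had the smallest p in BAT. It was at 36.0, 33.7, 31.1, 40.4 and 59.5 CPM in floxed libraries, and ran from 25.5 over a median of 31.7 to 45.1 CPM in BATI4KO libraries. The groups overlapped, and the difference of -0.33 ± 0.10 had an edgeR adjusted p of 0.191. Mrpl50, Mrps22, Mrpl20 and Mrpl54 followed at -0.36, -0.28, -0.45 and -0.32 (adjusted p between 0.216 and 0.27). In the other direction Mrpl15, a large subunit protein with a bacterial counterpart, was at 0.23 ± 0.11 (adjusted p = 0.381), and Mrpl18, Mrpl52, Mrpl43 and Mrps9 were between 0.016 and 0.053.

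Other lists were also mostly negative in BAT, with none of their genes called. All 36 complex I genes were negative (median -0.23), as were all 77 cytosolic ribosomal protein genes (-0.18) and 15 of 17 genes of mitochondrial mass (-0.19). Brown adipocyte markers were negative in 7 of 8 (median -0.23), and the 4 tested lymphocyte markers were positive (median 1.05, 3 at an unadjusted p under 0.05). The part of these cell markers in the result was not tested.

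Muscle transcripts moved with the BAT genotypes. Contractile genes summed to 318 to 1451 CPM in floxed and 779 to 20370 CPM in BATI4KO libraries, and all 33 tested were positive, with a median of 2.54 and none called. With a muscle score as a term, the medians of large and small subunit genes were -0.055 and -0.070. Without the BATI4KO library 3, which held the highest muscle level, they were -0.10 and -0.10. With library totals alone they were 0.0033 and 0.010.

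**Figure D4:**
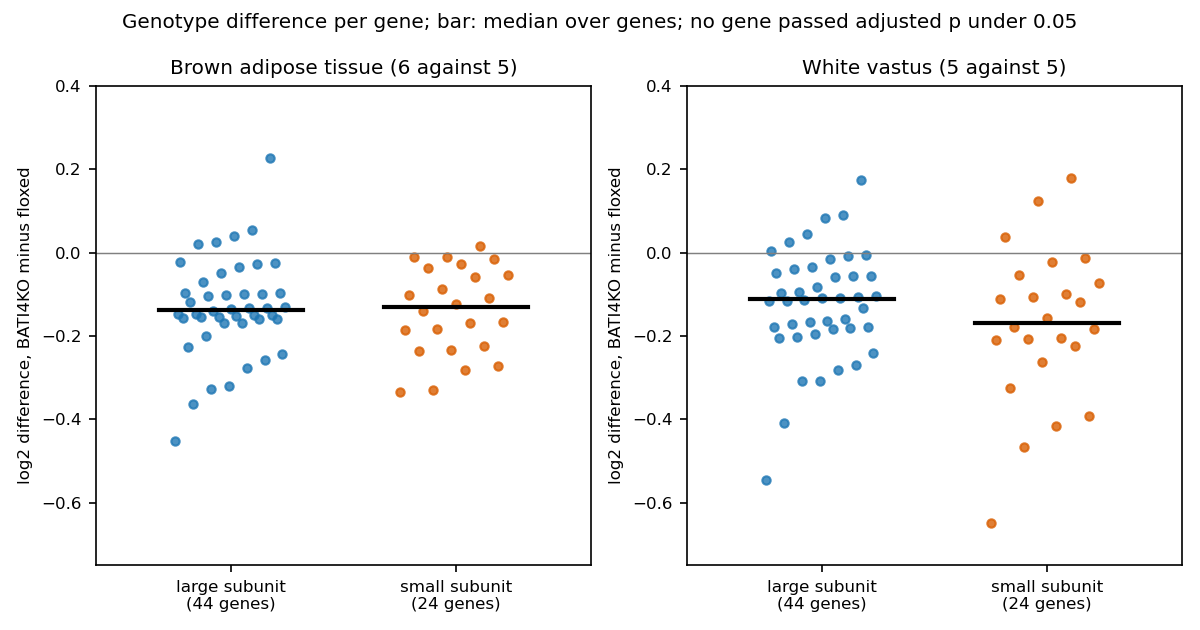
Log2 difference BATI4KO minus floxed for each gene (points) in BAT (left) and WV (right), by subunit; the bar is the median over genes. No gene passed adjusted p under 0.05, and the medians lie between -0.17 and -0.11.

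In white vastus, whose own cells are not the target of the deletion, the values were also small and mostly negative. By edgeR 0 of 68 genes passed (0.00688% of 14529 models did), and 9 had an unadjusted p under 0.05, as did 1295 of all models. DESeq2 called Mrps31 lower, and called 111 of all models. The difference was negative in 59 of 68, with medians of -0.11 for large and -0.17 for small subunit genes against -0.0078 for all models. Without WV_KO_5492 the medians were -0.21 and -0.24, with 21 genes at an unadjusted p under 0.05. Without WV_KO_5493 the medians were -0.070 and -0.12, with 5 genes. Of all models, 1809 and 794 were under 0.05 in these fits. With a correction for gene length the medians were -0.0033 and -0.060. Cytosolic ribosomal proteins had a median of -0.46 in the same fit, with 0 called.

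Mrps31, a small subunit protein found only in mitochondria, was at 26.1, 25.4, 24.9, 24.2 and 27.3 CPM in floxed WV and 21.5, 16.8, 20.8, 19.9 and 19.6 CPM in BATI4KO WV. The groups did not overlap, and the difference was -0.39 ± 0.09 (edgeR adjusted p = 0.285; DESeq2 adjusted p = 0.0153). Mrps28 also did not overlap, with -0.42 ± 0.12 (adjusted p = 0.367), so 2 of 68 lay wholly below, where 0.723% of all models did, and none wholly above, where 0.468% did. Mrps24, Mrps21 and Mrpl23 followed at -0.47, -0.65 and -0.27. For Mrps21, WV_FX_5413 and WV_FX_5415, at 73.73 and 53.86 CPM per kilobase, were near the BATI4KO range of 52.98 to 71.44. The floxed WV libraries high in Rmrp lay far above it. They were also the highest floxed WV libraries for Mrps28, Mrps24 and Mrpl23, but by little over WV_FX_5413. For Mrpl23, WV_FX_5497 was at 62.06 and WV_FX_5413 at 61.94 CPM per kilobase. Mrps31 was not ordered in this way. Mrps2 (0.18), Mrpl15 (0.17), Mrps15, Mrpl45 and Mrpl19 had the smallest p among positive values, none under 0.1 unadjusted.

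The genotype effect was not shown to differ between the tissues for any member. The interaction called 0 of 68 genes (0.018% of all models, 0.00601% higher and 0.012% lower). An unadjusted edgeR p under 0.05 was found in 2 of 68 genes and in 1766 of 16632 models. DESeq2 called 0 of 68, and 55 of all models. Mrps2 had the smallest p, as its tissue difference was smaller in BATI4KO mice (-0.47 ± 0.16, edgeR adjusted p = 0.324), followed by Mrps23 (-0.39) and Mrpl17 (-0.21). In the other direction were Mrpl52 (0.58), Mrps21 (0.45) and Mrps31 (0.21). Mrpl52 and Mrps21 were highest in the floxed WV libraries that were high in Rmrp.

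The title sets of BAT also differed in this family, in a comparison made after the data had been seen. With genotype as a term, 49 of 68 genes were lower in the short-number libraries and 1 higher (73.5% called), where 16.4% of all models were lower and 14.9% higher (31.3% called). The median was -0.48 for large and -0.55 for small subunit genes, against 0.027 for all models. In 35 genes every short-number library lay below every long-tag library, as in 9.52% of all models, and in none did every one lie above, as in 6.5%. Lists close to the family were lower too, so the shift was not particular to it. Called lower were 11 of 14 mitochondrial translation factors, 14 of 18 mitoribosome assembly factors and 7 of 10 mitoribosome proteins with other names. So were 10 of 17 mitochondrial tRNA synthetases, and none of these lists held a gene called higher. Brown adipocyte markers were also lower, 7 of 8, as were 15 of 17 genes of mitochondrial mass, and their part in the result was not tested.

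Mrpl39 differed most between the sets, from 21.5 to 24.8 CPM in the 6 short-number and from 56.9 to 77.4 CPM in the 5 long-tag libraries, a difference of -1.499 ± 0.087 (edgeR adjusted p = 2.53e-06). Mrps5, with a bacterial counterpart in the small subunit, was at 15.3 to 22.9 and 34.5 to 48.7 CPM (-1.23 ± 0.11). Mrps7, which nucleates small subunit assembly in bacteria, was at 24.4 to 31.7 and 47.2 to 70.7 CPM (-0.95 ± 0.10). What the title numbers stand for is not given in the sources used here.

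**Figure D5:**
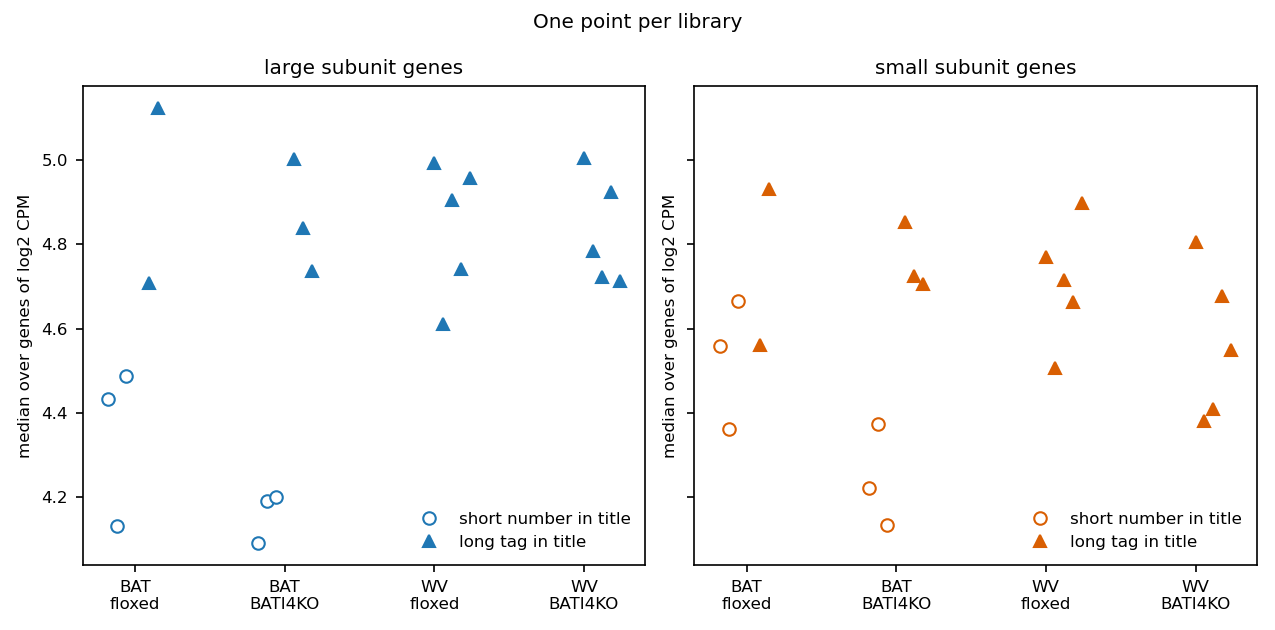
Median over genes of log2 CPM in each library, for large (left) and small subunit genes (right), by tissue and genotype; open circles are short-number and filled triangles long-tag libraries. Large subunit medians of short-number BAT libraries lie between 4.09 and 4.49, below the long-tag BAT libraries at 4.71 to 5.12.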

How the data were processed

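The authors deposited raw read counts per gene model for 11 BAT and 10 WV libraries, per the file headers, with model lengths in bases. The submitters' processing notes name TopHat2 2.0.14, featureCounts 1.4.6, edgeR and the build mm9, among others. Their settings were not given in the sources here. Counts were fitted with edgeR 4.0.16 in R 4.3.3 (filterByExpr, TMM, quasi-likelihood F test, Benjamini-Hochberg over all tested models, threshold 0.05), for BAT and WV separately and for all 21 libraries jointly, with title style as a term where BAT enters. Scripts were tested on simulated data. DESeq2 1.42.0, limma 3.58.1, other scalings, filters, a length correction and left-out libraries were alternatives. The smallest chi-square per gene between replicates was 30.4, so none were counted as 1 sample. Correlations of deviations between same-numbered samples ran from -0.11 to 0.13, which cannot exclude that some were paired.

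Genes named: the 10 largest tissue differences each way among those called in both genotypes (ranked by the mean of both), the 3 smallest, the 5 smallest p each way per genotype comparison, 3 for the interaction, the 5 highest and lowest levels, and Mrps30, Mrps36 and Mrpl12. The members and lists were chosen with earlier results of these data known. From other lists up to 4 called genes were eligible. The motifs, the title style comparison and the scaling to the members were added after seeing the data. Promoter coordinates are RefSeq's (GRCm38.p6) and were not mixed with the authors' build.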

Additional observations from a re-analysis of the deposited data

Results flagged for a closer look

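In 164 checks of a gene or a library median within a group, 9 values lay far from the rest of their group. Chance flags about 5%, so the number of flags is near that of chance. The BAT groups hold both title sets, so this share is only a guide there. In floxed BAT, BAT_FX_5503 was high for Mrpl12, at 90.6 CPM against 49.8 to 61.0 in the others, and for Mrps36, at 62.5 CPM against 39.1 to 44.3. In BATI4KO BAT, BAT_KO_5494 was high for Mrpl52, at 4.81 CPM against 3.48 to 3.76. In floxed WV, WV_FX_5415 was low for Mrpl23 (30.0 CPM against 36.1 to 37.7), Mrpl42 (90.2 against 130 to 136 CPM) and Mrps24 (21.03 against 29.5 to 32.9 CPM). In the same group, WV_FX_5413 was high for Mrps15, at 34.1 CPM against 19.2 to 22.9. In BATI4KO WV, WV_KO_5492 was high for Mrpl42, at 144 CPM against 95.1 to 105, and WV_KO_5493 was low for Mrps28, at 22.2 CPM against 29.3 to 31.2.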

How the results depend on the processing

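The genotype and interaction counts stayed at 0 under every alternative, except that DESeq2 called 1 gene in WV. Of 2519 values of named genes, 109 changed direction, 95 of them in genes called under neither setting. Tissue counts that moved are given as floxed and BATI4KO mice. Length correction gave 9 higher and 29 lower in BATI4KO mice, and medians of -0.29 (large) and -0.25 (small) there and -0.099 (small) in floxed mice. Library totals gave 49 and 60 called, 47 and 60 higher, 2 and 0 lower, with medians of 0.61 and 0.86 (large) and 0.77 and 0.88 (small), and interaction medians of 0.22 and 0.31. Without the title style term 7 and 10 were higher and 30 lower in floxed mice, with medians of -0.34 and -0.33 (large) and -0.29 and -0.25 (small). Upper quartiles gave BATI4KO medians of 0.10 and 0.13. Long tags alone gave a BAT genotype median of 0.033 for small subunit genes.

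Whether equal numbers mark paired samples could not be decided. Correlations of deviations were 0.13, -0.11 and 0.075 for numbers 1 to 3. They were 0.11, -0.0073, -0.084 and 0.079 for the tags shared by both tissues. Pairs with unlike numbers ran from -0.22 to 0.16. Low correlations between tissues cannot exclude a shared animal. The floxed long-tag BAT libraries number 2, so their deviations mirror each other and their values are not independent. The replicate block over 4 shared tags gave 25 and 26 called, with 10 rather than 17 higher in BATI4KO mice; Mrpl12 (-0.048) and Mrpl41 (-3.45e-05) there and Mrpl55 (-0.19) in floxed mice changed sign. The replicate block over numbers 1 to 3 called 0 in BAT, with Mrpl43 at -0.029, Mrpl52 at -0.057 and Mrps9 at -0.058.

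Other reversed tissue values in BATI4KO mice were, for Mrpl12, -0.026 (DESeq2), -0.026 (RLE), -0.26 (length) and -0.22 (no title style). For Mrpl55 they were 0.94 (library totals), 0.046 (mean of at least 1 CPM), 0.022 (no filter) and 0.18 (upper quartile), and for Mrps30 0.76 (library totals) and 0.0022 (upper quartile). Library totals also gave 0.38 for Mrpl18, 0.21 for Mrpl19, 0.35 for Mrpl37, 0.12 for Mrpl42, 0.40 for Mrpl45 and 0.15 for Mrpl54. In floxed mice library totals gave 0.099 for Mrpl18, 0.24 for Mrpl19, 0.29 for Mrpl37, 0.65 for Mrpl41, 0.29 for Mrpl45, 0.69 for Mrps24 and 0.33 for Mrps30. Mrpl55 was at -0.033 (DESeq2), -0.033 (RLE), -0.17 (length), -0.33 (no title style) and -0.0084 (scaled to the members). Mrpl12 was at -0.020 (length) and -0.12 (no title style), Mrps24 at 0.014 (mean of at least 1 CPM), 0.025 (no filter), 0.11 (no title style) and 0.11 (upper quartile), and Mrpl41 at 0.077 (upper quartile).

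In the BAT genotype comparison Mrps30 was at 0.13 (library totals), 0.21 (long tags), 0.059 (no title style), 0.12 (scaled to the members) and 0.025 (upper quartile). Mrps9 was at -0.00579 (length), -0.058 (muscle score) and -0.057 (short numbers), where Mrpl43 was at -0.032 and Mrpl52 at -0.10. In WV, Mrpl12 was at 0.032 (length) and 0.033 (scaled to the members), Mrps36 at 0.076 and 0.040, and Mrpl45 at -0.0030 (library totals). In the interaction, library totals gave 0.036 for Mrpl12, 0.042 for Mrpl17 and 0.14 for Mrps36, which was at 0.036 with long tags alone. The cause was not tested.

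With 1 library left out, higher calls in BATI4KO mice ran from 11 to 20, lower calls in floxed mice from 12 to 23, and the floxed small subunit median from -0.097 to 0.21. In BATI4KO mice Mrpl12 ran from -0.095 to 0.20 and Mrpl55 from -0.086 to 0.057. In floxed mice Mrpl12 ran from -0.033 to 0.35, Mrpl41 from -0.18 to 0.17, Mrpl55 from -0.21 to 0.12 and Mrps24 from -0.19 to 0.19. In the BAT genotype comparison Mrpl18 ran from -0.012 to 0.11, Mrpl43 from -0.038 to 0.065, Mrpl52 from -0.051 to 0.21, Mrps30 from -0.12 to 0.046 and Mrps9 from -0.011 to 0.065. In the interaction Mrpl12 ran from -0.28 to 0.022 and Mrps36 from -0.18 to 0.034. In WV Mrpl12 ran from -0.29 to 0.019 and Mrpl19 from -0.013 to 0.21. Summing all models of a symbol was not run, since each symbol had 1 model. Each gene had 106 counts or more in every library.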
